A study of Mus musculus with 6 samples.

Results

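Genes switched on by type I interferon were followed in bulk RNA sequencing of mouse dorsal root ganglia, which house the cell bodies of sensory neurons next to the spinal cord. The list named 43 interferon-stimulated genes, and all 43 had a read in at least 1 library, out of 54532 genes in the count table. Of these, 42 passed the count filter; Oas3, with 0 to 9 reads per library, did not. The study set ganglia of Ash1l+/- mice, which carry 1 altered copy of the histone methyltransferase gene Ash1l, against ganglia of their wild-type (WT) littermates, with 3 libraries per genotype. The sources used here give no allele, strain, age or pooling of ganglia or animals. Whether the libraries of a genotype stand for different animals is not stated in the labels, so the p-values measure spread between samples that may be technical. In bulk tissue, more RNA per cell and more cells of a type that makes it cannot be told apart.

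Type I interferons are secreted proteins that bind a receptor made of Ifnar1 and Ifnar2. The kinases Jak1 and Tyk2 then activate Stat2, which works with Irf9 at a short DNA element, the interferon-stimulated response element, in the promoters of antiviral genes. The products sense foreign RNA, block translation, trap virus particles and feed back on the pathway, and resting tissues including neurons and glia make many of them at low levels.

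Total gene counts ran from 17209294 to 20545722 per library. Values are CPM, read counts scaled to a common library size with trimmed-mean (TMM) factors, unless FPKM, which also divides by gene length, is named. WT replicate 2 stood apart: its mean correlation with the rest on log2 CPM was 0.859, against 0.959 or more for every other library, and the test results of the members named below are given over all 6 libraries and over the 5 without it. Ash1l itself was at 66.5, 66.5 and 68.9 CPM in the Ash1l+/- libraries, against 60.9, 30.9 and 54.4 in WT, so its level does not check the labels. Sensory neuron markers were abundant, with a mean over the 6 libraries of 1240 FPKM for Prph and 236 for Avil. The summed CPM of 12 such markers was 28700 in WT replicate 2 and 15600 to 16600 in the other libraries.

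Most interferon response genes had higher values in the libraries labelled Ash1l+/-, but none passed the test when all 6 libraries entered. In edgeR's quasi-likelihood test with Benjamini-Hochberg adjustment, 0 of 42 members and 0 of 16032 genes (0%) passed an adjusted p of 0.05, and the smallest adjusted p over all genes was 0.385. At an unadjusted p of 0.05, 10 members were higher (23.8%) and 1 was lower (2.38%), against 3.22% and 7.4% of all genes. DESeq2 called 0 members and 35 genes, and limma on log2(FPKM + 1) called 0 members. The median log2 fold change, Ash1l+/- over WT, was 0.39 for the members and 0 for all genes tested, and it was above 0 for 32 of 42 members. Every Ash1l+/- library lay above every WT library for 17 members (40.5%) against 19.3% of all genes, and below for 1 member (2.38%) against 19.2%.

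Without WT replicate 2, 14 of 42 members rose and 1 fell. Of 16395 genes tested 19.8% were called. Higher calls made up 33.3% of members and 9.39% of all genes, and lower calls 2.38% of members and 10.4% of all genes. The genes that rose were Ifit1, Ifit3, Ifit3b, Ddx58, Zbp1, Eif2ak2, Gbp3, Gbp7, Dtx3l, Parp14, Rsad2, Slfn5, Slfn9 and Samd9l, and the gene that fell was Ifi27. The median log2 fold change was 0.42, against 0 for all genes, with 38 of 42 members above 0. Every Ash1l+/- library was above WT replicates 1 and 3 for 22 members (52.4%), against 23.9% of all genes, and below them for 1 (2.38%), against 25.3%.

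The count of members called was smaller with GC and length trends removed, and it varied with the further Ash1l+/- library left out. The 5 libraries differed along GC content and length across genes, and with these trends removed from each library 7.04% of genes were called, and 6 members rose (14.3%, against 2.62% of all genes) and 1 fell (2.38%, against 4.42%). Those that rose were Ifit1, Ifit3, Ddx58, Zbp1, Dtx3l and Samd9l, and Ifi27 again fell. Leaving out Ash1l+/- replicate 1, 2 or 3 as well left 16, 10 and 16 members higher, beside 12.1%, 4.94% and 6.06% of all genes. The 6 members that rose with trends removed were higher in each of these fits. Ifi27 was lower in each, beside 13.9%, 6.5% and 6.97% of all genes. Leaving out WT replicate 1 or WT replicate 3 instead gave member median log2 fold changes of 0.40 and 0.37, with Ifi27 at -0.60 and -0.53. The lone WT library was then assumed to vary like the Ash1l+/- libraries.

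**Figure D1:**
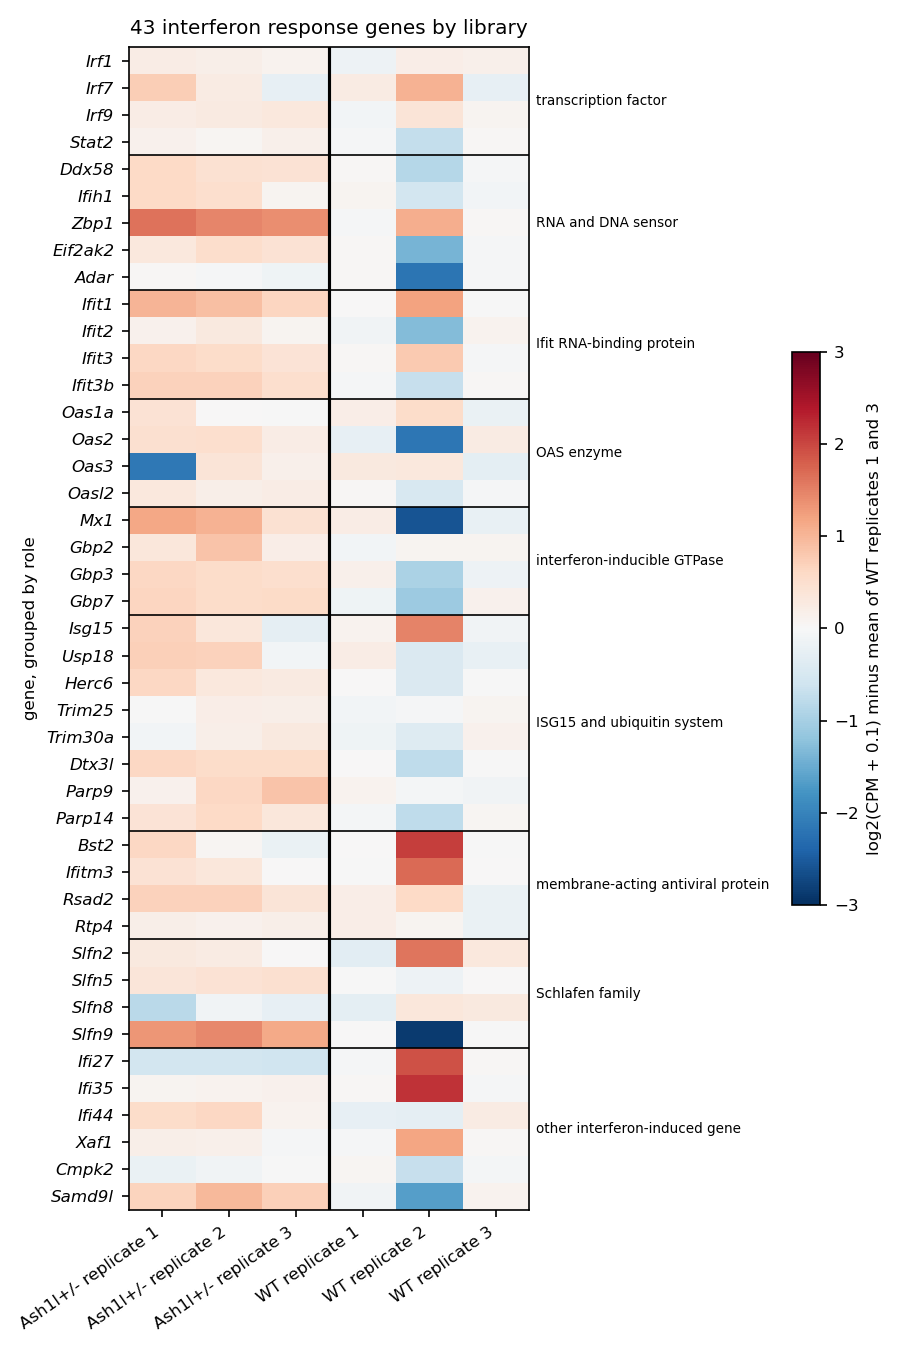
Level of each of the 43 members in each library, as log2(CPM + 0.1) minus the mean of WT replicates 1 and 3 (red higher, blue lower), with genes grouped by role. The Ash1l+/- columns are mostly red, with medians of 0.43, 0.39 and 0.20 over the 42 members tested, while WT replicate 2 holds both the deepest red and the deepest blue.

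The libraries of each genotype did not carry the pattern equally. The member median relative to WT replicates 1 and 3 was 0.43 in Ash1l+/- replicate 1, 0.39 in replicate 2 and 0.20 in replicate 3 on the log2 scale, against -0.20 in WT replicate 2, while the median of all genes stayed between -0.06 and 0.01. Among the Ash1l+/- libraries, replicate 1 had the highest CPM for 24 of 43 members and replicate 3 the lowest for 28. Of 42 members, 38 were above the mean of WT replicates 1 and 3 in Ash1l+/- replicate 1, 38 in replicate 2 and 32 in replicate 3, against 18 in WT replicate 2.

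**Figure D2:**
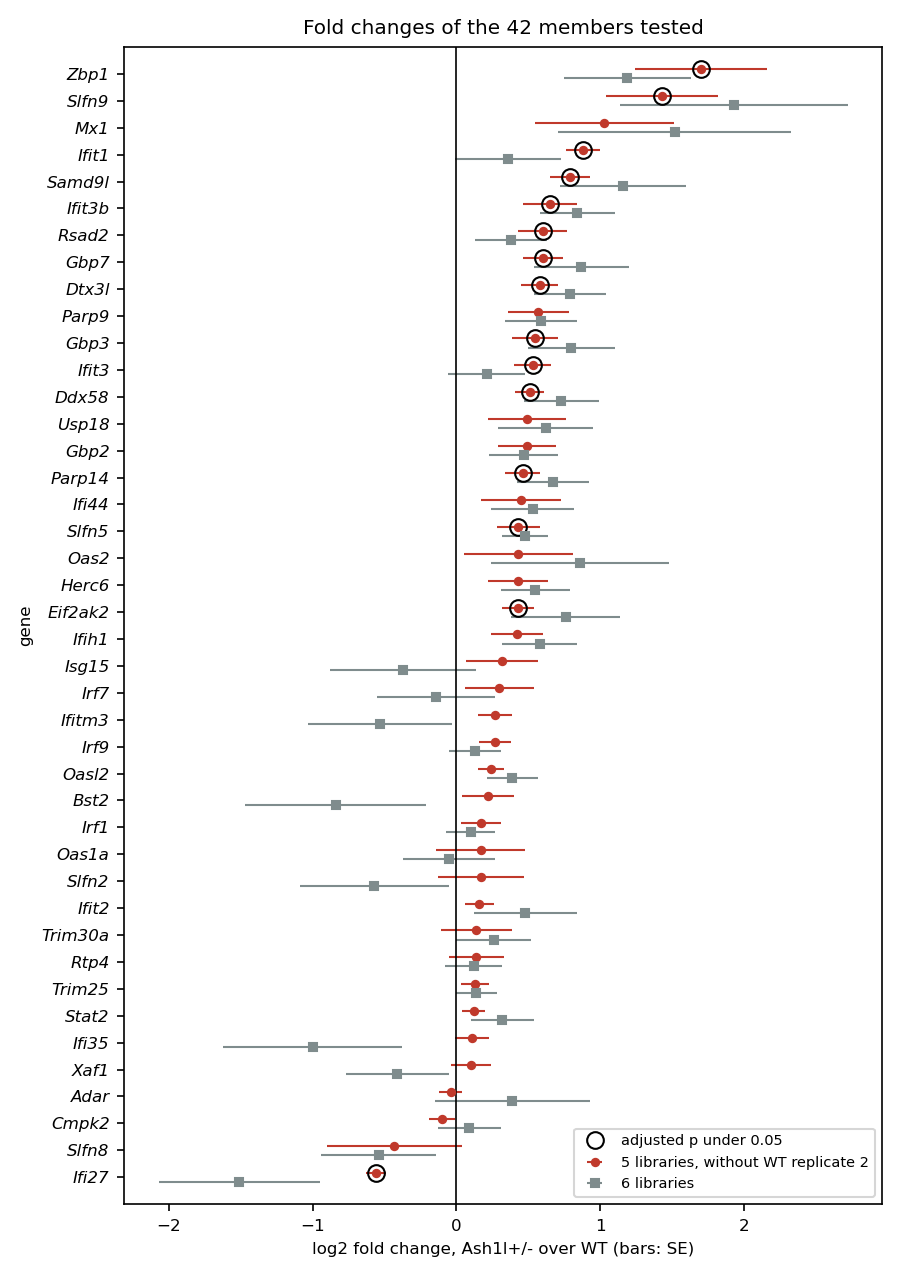
Log2 fold change (Ash1l+/- over WT) of the 42 tested members with SE bars, over 5 libraries without WT replicate 2 (circles) and over all 6 (squares). Ringed circles mark the 15 members past an adjusted p of 0.05; in the 6-library fit no member passed.

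The transcription factors of the pathway did not pass the test in either fit. Stat2, the signal transducer particular to type I and type III interferon, was at 63.5, 61.4 and 65.5 CPM in Ash1l+/- ganglia and at 57.1, 35.8 and 60.0 in WT. All 3 Ash1l+/- values exceeded all 3 WT values, but its log2 fold change of 0.32 (SE 0.22, edgeR adjusted p = 0.445) did not pass, nor did that of 0.12 (SE 0.08, adjusted p = 0.32) without WT replicate 2. Irf9, the DNA-binding partner of Stat2, was at 20.1, 20.9 and 21.5 CPM in Ash1l+/- ganglia and 16.3, 22.6 and 18.3 in WT. The Ash1l+/- libraries lay above WT replicates 1 and 3 and below WT replicate 2, with a log2 fold change of 0.27 (SE 0.11, edgeR adjusted p = 0.101) over the 5 libraries and 0.13 (SE 0.18, adjusted p = 0.664) over 6. Irf7, which amplifies interferon production, was at 8.88, 6.22 and 4.45 CPM in Ash1l+/- ganglia and 6.22, 10.9 and 4.46 in WT. Irf1, a factor also induced by interferon gamma, was at 12.9, 12.4 and 11.8 CPM in Ash1l+/- ganglia and 9.88, 12.6 and 12.2 in WT. The genotypes overlapped for both. Irf1 had folds of 0.10 (SE 0.17) with 6 libraries and 0.17 (SE 0.14) with 5, and the sign of the Irf7 fold turned from -0.14 (SE 0.41) with 6 libraries to 0.30 (SE 0.24) with 5.

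Sensors of foreign nucleic acid gave 3 rises among 5 members without WT replicate 2, beside 9.39% of all genes. With trends removed 2 rose, beside 2.62% of all genes. Ddx58, which encodes the cytosolic RNA sensor RIG-I (chromosome 4, 40203773 to 40239828, minus strand, GRCm38), was at 33.8, 30.5 and 30.1 CPM in Ash1l+/- ganglia and 22.6, 12.3 and 21.8 in WT. No Ash1l+/- library overlapped a WT library. The log2 fold change was 0.73 (SE 0.26, edgeR adjusted p = 0.385) over 6 libraries, 0.51 (SE 0.10, adjusted p = 0.00267) over 5, and 0.37 (adjusted p = 0.0236) with trends removed. Zbp1, a sensor of left-handed nucleic acid that can trigger cell death (chromosome 2, 173206612 to 173218923), had few reads, 32, 24 and 22 in Ash1l+/- and 8, 13 and 8 in WT. Its groups also did not overlap, at 1.46, 1.29 and 1.22 CPM in Ash1l+/- ganglia and 0.395, 0.971 and 0.415 in WT. Its log2 fold change of 1.70 (SE 0.46, edgeR adjusted p = 0.0129) was the largest among the members called over 5 libraries. Over 6 libraries it was 1.19 (SE 0.44, edgeR adjusted p = 0.385), below that of Slfn9.

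Eif2ak2 encodes PKR, a kinase that stops translation when it binds duplex RNA (chromosome 17, 78852564 to 78882573). It was at 28.0, 32.7 and 30.5 CPM in Ash1l+/- ganglia and 23.1, 8.52 and 22.1 in WT, with WT replicate 2 far below every other library. The log2 fold change over 5 libraries was 0.43 (SE 0.11, edgeR adjusted p = 0.00788), and it missed the threshold with trends removed (0.28, adjusted p = 0.077) and over 6 libraries (0.76, SE 0.38, adjusted p = 0.385). Ifih1, which encodes the RNA sensor MDA5, was at 10.6, 9.93 and 7.35 CPM in Ash1l+/- ganglia and 7.41, 4.71 and 6.53 in WT. The groups overlapped only between Ash1l+/- replicate 3 and WT replicate 1, and neither the 5-library fold of 0.42 (SE 0.18, edgeR adjusted p = 0.0986) nor the 6-library fold of 0.58 (SE 0.26, adjusted p = 0.385) passed. Adar, which edits duplex RNA and restrains the sensors, was at 62.9, 59.3 and 55.8 CPM in Ash1l+/- ganglia and 62.9, 13.2 and 59.1 in WT. Apart from WT replicate 2 the libraries overlapped, with a log2 fold change of -0.04 (SE 0.08) over 5 libraries and 0.39 (SE 0.54) over 6. Adar overlaps Chrnb2 on the opposite strand over 7252 bases, the library kit as named does not mark strand, and Chrnb2 had 14067 reads in all against 6071 for Adar, so the Adar count is uncertain.

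The Ifit genes, whose products bind viral RNA ends and block their translation, lie together on chromosome 19 in the order Ifit2, Ifit3, Ifit3b and Ifit1, from 34550694 to 34650009. Of the 4, 3 rose without WT replicate 2, beside 9.39% of all genes, and 2 with trends removed, beside 2.62%. The core of the interferon-stimulated response element is GAAA followed by any 2 bases and a further GAAA. In the RefSeq promoter table (GRCm38.p6) it was found upstream of Ifit1, Ifit3 and Ifit3b, the genes that rose without WT replicate 2. The 250 bases before each start, all on the plus strand, are shown because the element and its spacing can be read in them. Capitals mark the core, which lies in reverse complement here, as TTTC, 2 bases and TTTC.
Ifit1 (chr19:34640639-34640888): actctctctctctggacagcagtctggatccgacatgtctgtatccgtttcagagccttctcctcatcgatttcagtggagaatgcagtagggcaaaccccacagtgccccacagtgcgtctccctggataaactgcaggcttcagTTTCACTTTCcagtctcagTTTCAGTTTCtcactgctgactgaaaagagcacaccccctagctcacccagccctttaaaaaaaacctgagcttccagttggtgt
Ifit3 (chr19:34583279-34583528): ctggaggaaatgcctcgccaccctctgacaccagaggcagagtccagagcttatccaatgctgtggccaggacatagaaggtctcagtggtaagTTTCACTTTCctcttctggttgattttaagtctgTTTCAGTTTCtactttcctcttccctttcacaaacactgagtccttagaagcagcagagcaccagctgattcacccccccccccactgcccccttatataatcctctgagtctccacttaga
Ifit3b (chr19:34607707-34607956): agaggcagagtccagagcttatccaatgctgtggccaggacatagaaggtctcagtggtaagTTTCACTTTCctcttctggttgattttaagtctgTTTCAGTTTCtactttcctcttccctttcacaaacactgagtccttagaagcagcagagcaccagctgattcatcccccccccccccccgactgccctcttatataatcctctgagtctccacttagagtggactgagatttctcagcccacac
Each promoter holds 2 cores, and the Ifit3 and Ifit3b windows share an identical run of 169 bases, against 13 between either of them and Ifit1.

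Ifit1 was at 36.3, 33.5 and 27.8 CPM in Ash1l+/- ganglia and 17.8, 41.0 and 17.7 in WT. Every Ash1l+/- library was above WT replicates 1 and 3, and WT replicate 2 was above them all. Its log2 fold change was 0.88 (SE 0.12, edgeR adjusted p = 9.67e-05) over 5 libraries, 0.76 (adjusted p = 0.00113) with trends removed, and 0.36 (SE 0.37, adjusted p = 0.575) over 6. Ifit3 was at 15.7, 14.9 and 13.5 CPM in Ash1l+/- ganglia and 10.5, 17.6 and 9.85 in WT, the same order of libraries, with a log2 fold change of 0.53 (SE 0.13, edgeR adjusted p = 0.00984) over 5 libraries and 0.21 (SE 0.27, adjusted p = 0.634) over 6. Ifit3b was at 6.64, 6.60 and 5.79 CPM in Ash1l+/- ganglia and 3.95, 2.47 and 4.15 in WT. Here WT replicate 2 was the lowest library, the groups did not overlap, and the log2 fold change was 0.65 (SE 0.19, edgeR adjusted p = 0.0198) over 5 libraries and 0.84 (SE 0.26, adjusted p = 0.385) over 6. Of the stretches of 50 bases in the longest Ifit3 transcript, 51.2% also occur in Ifit3b, so the division of reads between these near-copies is uncertain. Ifit2 was at 38.7, 43.4 and 37.6 CPM in Ash1l+/- ganglia and 33.1, 14.3 and 38.4 in WT. Its groups overlapped once, between Ash1l+/- replicate 3 and WT replicate 3, and it did not pass over 5 libraries (0.16, SE 0.10, edgeR adjusted p = 0.278) or over 6 (0.48, SE 0.36, adjusted p = 0.466).

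**Figure D3:**
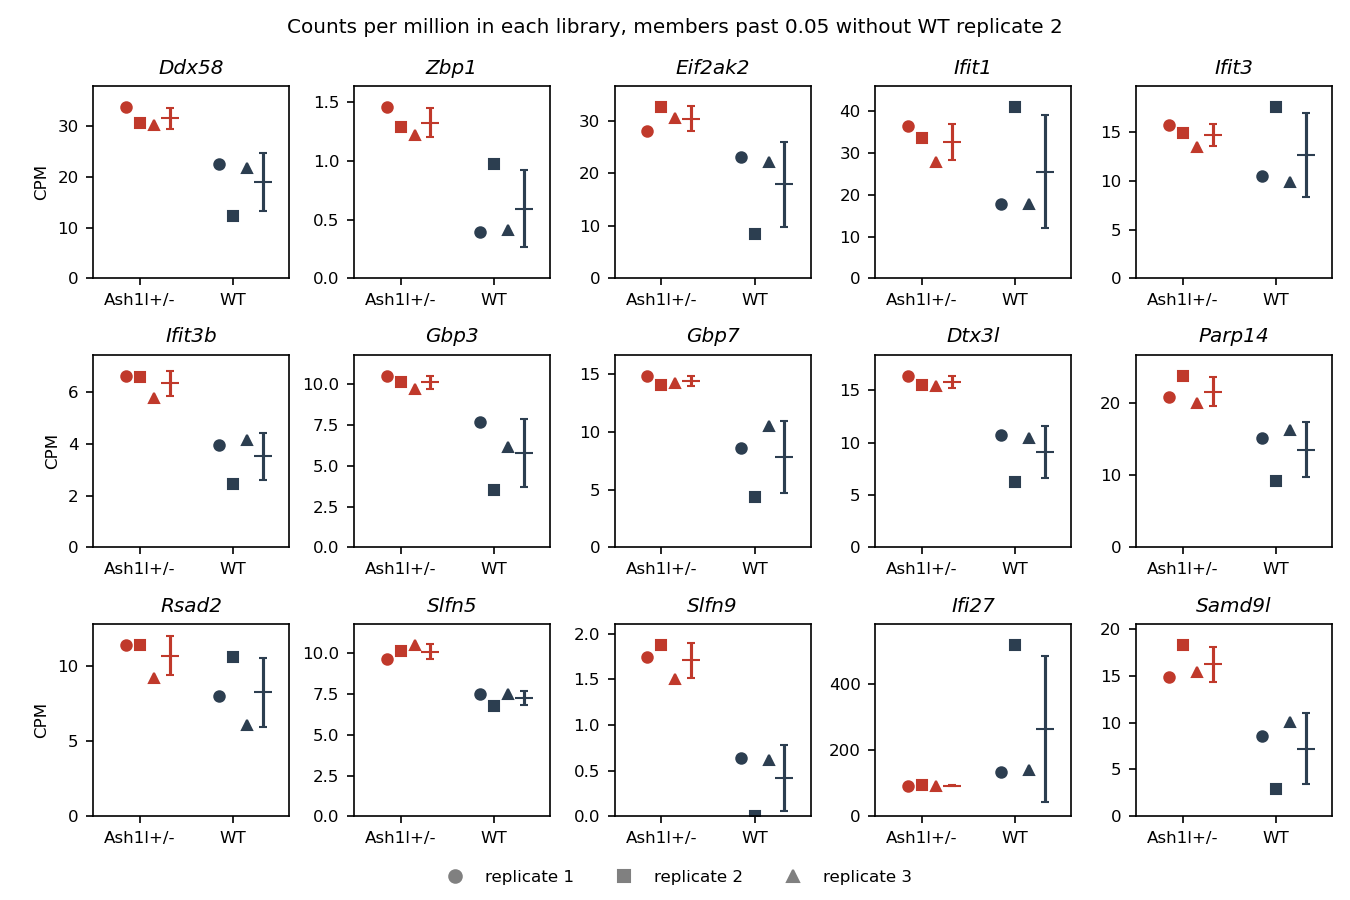
CPM in each library for the 15 members past an adjusted p of 0.05 without WT replicate 2, with markers for replicates 1 to 3 and the mean with SD beside them (n = 3). WT replicate 2 (square, right) is the lowest WT value for Ddx58, Eif2ak2, Ifit3b, Gbp3, Gbp7, Dtx3l, Parp14, Slfn5, Slfn9 and Samd9l, and the highest for Ifit1, Ifit3, Zbp1, Rsad2 and Ifi27.

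The OAS enzymes answer duplex RNA by making the messenger that activates an RNA-cutting enzyme, and Oasl2 is a relative of this family. With genotype as the only term, the 3 members tested gave no call over 5 or 6 libraries. Oasl2 was at 48.5, 43.4 and 45.0 CPM in Ash1l+/- ganglia and 39.3, 27.5 and 38 in WT. The groups did not overlap, and the log2 fold change was 0.39 (SE 0.18, edgeR adjusted p = 0.385) over 6 libraries and 0.24 (SE 0.09, adjusted p = 0.0656) over 5. With a further term for replicate number it passed over 5 libraries (0.28, SE 0.09, edgeR adjusted p = 0.0187). Oas2 and Oas1a were at 1.40 ± 0.151 and 2.03 ± 0.387 CPM in Ash1l+/-, against 0.744 ± 0.554 and 2.11 ± 0.568 in WT (SD, n = 3). Over 6 libraries their log2 fold changes were 0.86 (SE 0.62) and -0.05 (SE 0.32), and over 5 they were 0.43 (SE 0.38) and 0.17 (SE 0.31). Oas1a shares 57.6% of its stretches of 50 bases with Oas1g, so its count is uncertain, and Oas3 was too low to test.

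Interferon-inducible GTPases were above all WT libraries in every Ash1l+/- library for each of the 4 members, beside 19.3% of all genes. The guanylate-binding proteins Gbp3 and Gbp7, which attack vacuoles that shelter pathogens, lie within 1 stretch of chromosome 3 (142530342 to 142573209). Gbp7 was at 14.9, 14.1 and 14.3 CPM in Ash1l+/- ganglia and 8.64, 4.41 and 10.5 in WT. Gbp3 was at 10.5, 10.1 and 9.68 CPM in Ash1l+/- ganglia and 7.66, 3.51 and 6.12 in WT. The 3 Ash1l+/- values of each gene were close together, and WT replicate 2 was the lowest library for both. Over 5 libraries Gbp7 rose by 0.60 (SE 0.14, edgeR adjusted p = 0.00548) and Gbp3 by 0.55 (SE 0.16, adjusted p = 0.0194) on the log2 scale, and both missed the threshold with trends removed, at adjusted p of 0.0732 and 0.073. Over 6 libraries the values were 0.87 (SE 0.33) for Gbp7 and 0.80 (SE 0.30) for Gbp3, each with an edgeR adjusted p of 0.385. The related Gbp2 was at 8.29 ± 2.14 CPM in Ash1l+/- ganglia and 6.0 ± 0.409 in WT (SD, n = 3) and did not pass, with folds of 0.47 (SE 0.24) over 6 libraries and 0.49 (SE 0.20) over 5. Mx1, which blocks influenza-like viruses, had 27, 21 and 13 reads in Ash1l+/- and 12, 0 and 8 in WT, and neither its 5-library log2 fold change of 1.03 (SE 0.48, edgeR adjusted p = 0.136) nor that of 1.52 (SE 0.81, adjusted p = 0.388) over 6 passed.

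Of 8 members of the ISG15, ubiquitin and ADP-ribose system, 2 rose without WT replicate 2, beside 9.39% of all genes. Dtx3l, a ubiquitin ligase that works bound to Parp9, and Parp14, an ADP-ribosyltransferase, lie near each other on chromosome 16 (35832874 to 35939151, minus strand). Dtx3l was at 16.4, 15.5 and 15.4 CPM in Ash1l+/- ganglia and 10.7, 6.20 and 10.4 in WT. Parp14 was at 20.9, 23.8 and 20.0 CPM in Ash1l+/- ganglia and 15.1, 9.26 and 16.3 in WT. Neither gene's groups overlapped. Over 5 libraries the log2 fold changes were 0.58 (SE 0.13, edgeR adjusted p = 0.00395) for Dtx3l and 0.46 (SE 0.12, adjusted p = 0.0106) for Parp14, and with trends removed Dtx3l still passed (0.47, adjusted p = 0.023) while Parp14 did not (0.28, adjusted p = 0.129). Over 6 libraries the values were 0.79 (SE 0.25) for Dtx3l and 0.67 (SE 0.25) for Parp14, each with an edgeR adjusted p of 0.385. Parp9 overlaps Dtx3l by 682 bases on the opposite strand, so reads there cannot be told apart. It was at 4.85, 6.87 and 8.07 CPM in Ash1l+/- ganglia and 4.74, 4.26 and 4.10 in WT, with folds of 0.57 (SE 0.21, edgeR adjusted p = 0.0649) over 5 libraries and 0.59 (SE 0.25, adjusted p = 0.385) over 6.

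Isg15, the ubiquitin-like protein that gives the system its name, and Usp18, the protease that removes it and damps the receptor, did not pass. Isg15 was at 5.59, 4.40 and 2.84 CPM in Ash1l+/- ganglia and 3.70, 9.79 and 3.21 in WT. Usp18 was at 4.58, 4.51 and 2.62 CPM in Ash1l+/- ganglia and 3.26, 2.02 and 2.33 in WT. Both were lowest in replicate 3 among the Ash1l+/- libraries, and their 5-library folds of 0.32 (SE 0.25) and 0.49 (SE 0.27) had edgeR adjusted p of 0.411 and 0.213. Over 6 libraries the folds were -0.37 (SE 0.51) for Isg15 and 0.62 (SE 0.33) for Usp18. Trim25, a ubiquitin ligase that activates RIG-I, had the highest mean CPM of this group, at 35, 40.2 and 39.5 CPM in Ash1l+/- ganglia and 33.3, 33.9 and 36.8 in WT. Its groups overlapped and its fold was 0.13 (SE 0.10) over 5 libraries and 0.14 (SE 0.14) over 6. Herc6, the ligase that attaches Isg15 in mice, and Trim30a also did not pass, with folds of 0.43 (SE 0.21) and 0.14 (SE 0.25) over 5 libraries and 0.55 (SE 0.24) and 0.26 (SE 0.26) over 6.

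Among the antiviral proteins that act at membranes, Rsad2 rose without WT replicate 2 and 3 others did not pass. In that fit 9.39% of all genes rose. Rsad2 encodes viperin, which makes a chain-terminating nucleotide (chromosome 12, 26442746 to 26456452). It was at 11.4, 11.4 and 9.18 CPM in Ash1l+/- ganglia and 8.0, 10.6 and 6.07 in WT. Ash1l+/- replicates 1 and 2 were above every WT library and replicate 3 was below WT replicate 2, with a 5-library log2 fold change of 0.60 (SE 0.17, edgeR adjusted p = 0.0166), 0.47 (adjusted p = 0.0976) with trends removed and 0.38 (SE 0.25, adjusted p = 0.43) over 6. Its neighbour Cmpk2, a mitochondrial nucleotide kinase, did not pass, at 33.7, 35.7 and 38.3 CPM in Ash1l+/- ganglia and 40.0, 23.9 and 37.1 in WT, with folds of -0.10 (SE 0.09, edgeR adjusted p = 0.483) over 5 libraries and 0.09 (SE 0.22, adjusted p = 0.805) over 6.

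Ifitm3 and Bst2 were far higher in WT replicate 2 than in any other library. Ifitm3, which blocks virus entry at endosomes, was at 29.3, 27.5 and 21.7 CPM in Ash1l+/- ganglia and 21.6, 70.2 and 21.8 in WT. Bst2, which tethers budding virus and is also named tetherin, was at 17.4, 11.7 and 9.74 CPM in Ash1l+/- ganglia and 11.3, 47.4 and 11.1 in WT. Their log2 fold changes over 6 libraries were -0.53 (SE 0.50) and -0.84 (SE 0.63), and over 5 libraries 0.27 (SE 0.12) and 0.22 (SE 0.18), with edgeR adjusted p of 0.541, 0.465, 0.123 and 0.432 in that order. Both signs thus differed with and without WT replicate 2, and for Bst2 the value was -0.07 (SE 0.16) when Ash1l+/- replicate 1 was left out as well. Rtp4, a chaperone of receptors that also restrains viruses, was at 5.63 ± 0.0872 CPM in Ash1l+/- ganglia and 5.19 ± 0.706 in WT (SD, n = 3), with folds of 0.12 (SE 0.20) over 6 libraries and 0.14 (SE 0.19) over 5.

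The Schlafen genes, interferon-induced regulators of cell growth and of transfer RNA, form a cluster on chromosome 11. Without WT replicate 2, 2 of 4 rose, beside 9.39% of all genes. Slfn5 was at 9.61, 10.1 and 10.5 CPM in Ash1l+/- ganglia and 7.46, 6.72 and 7.47 in WT. Slfn9 had 38, 35 and 27 reads in Ash1l+/- and 13, 0 and 12 in WT. Both genes were separated by genotype in all 6 libraries. Slfn5 had a log2 fold change of 0.43 (SE 0.15, edgeR adjusted p = 0.0483) over 5 libraries and Slfn9 of 1.43 (SE 0.39, adjusted p = 0.0155), and with trends removed they stood at 0.27 (adjusted p = 0.264) and 1.25 (adjusted p = 0.0578). Over 6 libraries the values were 0.48 (SE 0.16) for Slfn5 and 1.93 (SE 0.79) for Slfn9, each with an edgeR adjusted p of 0.385. Slfn8, the next member along from Slfn9, did not pass, at 0.662 ± 0.181 CPM in Ash1l+/- ganglia and 0.967 ± 0.239 in WT (SD, n = 3), nor did Slfn2, at 2.28 ± 0.245 in Ash1l+/- and 3.42 ± 2.45 in WT. Their folds were -0.54 (SE 0.40) and -0.57 (SE 0.52) over 6 libraries and -0.43 (SE 0.47) and 0.17 (SE 0.30) over 5.

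Among the remaining 6 members, Samd9l rose and Ifi27 fell without WT replicate 2, beside 9.39% of all genes higher and 10.4% lower. Samd9l, a cytoplasmic protein that limits translation and growth (chromosome 6, 3372257 to 3399572), was at 14.9, 18.3 and 15.4 CPM in Ash1l+/- ganglia and 8.59, 2.91 and 10.1 in WT. No library overlapped between genotypes. Its log2 fold change was 0.79 (SE 0.14, edgeR adjusted p = 0.000927) over 5 libraries, 0.53 (adjusted p = 0.0156) with trends removed and 1.16 (SE 0.44, adjusted p = 0.385) over 6. Ifi27, which encodes a small membrane protein (chromosome 12, 103434211 to 103440239), was at 93.3, 94.4 and 91.4 CPM in Ash1l+/- ganglia and 134, 519 and 141 in WT. All Ash1l+/- values were below all WT values, and it fell by 0.56 (SE 0.07, edgeR adjusted p = 6.97e-05) on the log2 scale over 5 libraries and by 0.44 (adjusted p = 0.000462) with trends removed. Over 6 libraries its log2 fold change was -1.51 (SE 0.56, edgeR adjusted p = 0.385). Ifi35, Ifi44 and Xaf1 did not pass, with folds of 0.11 (SE 0.12), 0.45 (SE 0.28) and 0.10 (SE 0.14) over 5 libraries and -1.0 (SE 0.62), 0.53 (SE 0.29) and -0.41 (SE 0.36) over 6.

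On the FPKM scale, which allows genes to be compared, the members spanned a wide range. Ifi27 had the highest mean over the 6 libraries, 124 FPKM, followed by Ifitm3 at 48.1, Bst2 at 20.4, Ifi35 at 13.5 and Ifit1 at 11.2. All of these genes were highest in WT replicate 2. Without that library Ifi27 averaged 77.3 FPKM, Ifitm3 36.8 and Bst2 13.9, followed by Stat2 at 10.6 and Ifit1 at 10.3, while Ifi35 averaged 8.76. The median member stood at 2.48 FPKM over 6 libraries and 2.54 over 5, and 10 members averaged under 1 over 6 libraries.

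The departure of WT replicate 2 followed gene length within the list. All 8 members shorter than 2000 bases, a bound chosen after their values were seen, were highest in WT replicate 2: Ifitm3, Isg15, Bst2, Ifi27, Slfn2, Ifi35, Ifit3 and Oas1a. Of the 35 longer members, 5 were highest there and 22 were lowest there. Across the 42 tested members the difference of WT replicate 2 from WT replicates 1 and 3 had a Spearman rho of -0.62 with gene length and 0.48 with GC share, against -0.46 and 0.29 across 14128 protein-coding genes; these are descriptions across genes of the same libraries. Without WT replicate 2, the members' fold changes still ran against GC share, with a rho of -0.39, against -0.61 across all protein-coding genes, and 0.04 once the trends were removed.

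**Figure D4:**
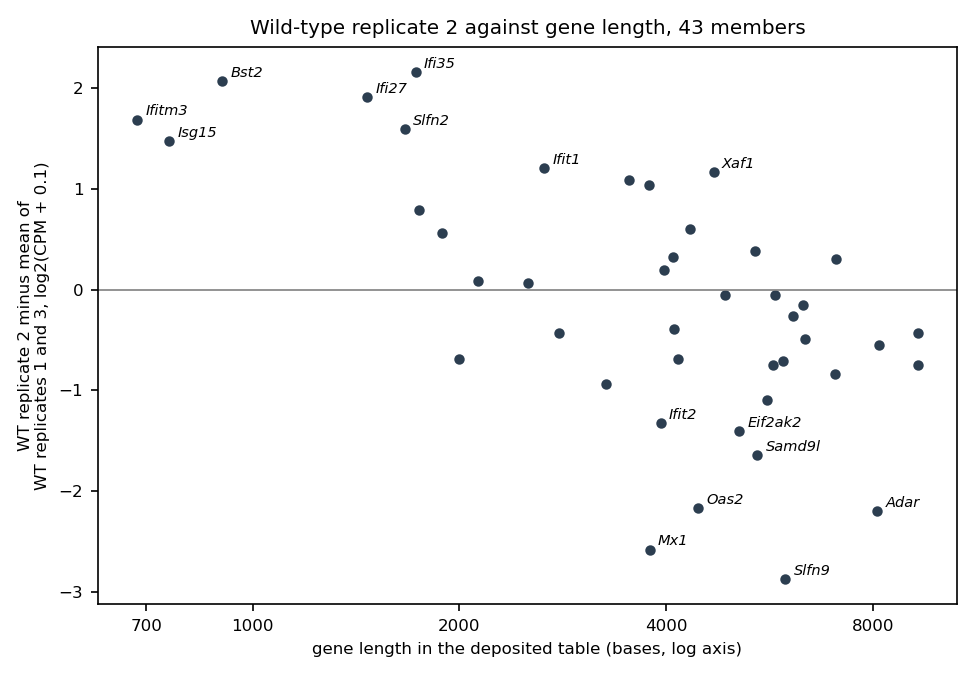
Log2(CPM + 0.1) of WT replicate 2 minus the mean of WT replicates 1 and 3 against gene length in bases (log axis) for the 43 members, 1 point per gene. Short genes such as Bst2 (2.07) and Ifi35 (2.16) lie above 0 and long ones such as Adar (-2.20) and Slfn9 (-2.87) below it.

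The response element core was common in the members' promoters. Of 35 members with a RefSeq promoter entry (250 bases before to 50 after the start), 20 held the core on either strand (57.1%), against 3.99% of 27025 genes. The 30 distinct matches began between positions -222 and 33 from the nearest annotated start, 24 of them upstream, with a median at -62.5. In 2 of them the match overlapped a gamma-activated site, searched as TTC and GAA with 3 bases between. That site was in 9 of the 35 members (25.7%) and in 9.55% of all genes. Among tested members with the core, 10 of 19 rose without WT replicate 2, with a median log2 fold change of 0.43, as did 2 of 15 without it, with a median of 0.17, beside 9.39% of all genes. With trends removed, 3 of 19 with the core and 2 of 15 without it rose, with medians of 0.39 and 0.20, beside 2.62% of all genes. Of the 8 members with no promoter entry, 2 rose and 1 fell over 5 libraries. The difference between these subsets was not tested.

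**Figure D5:**
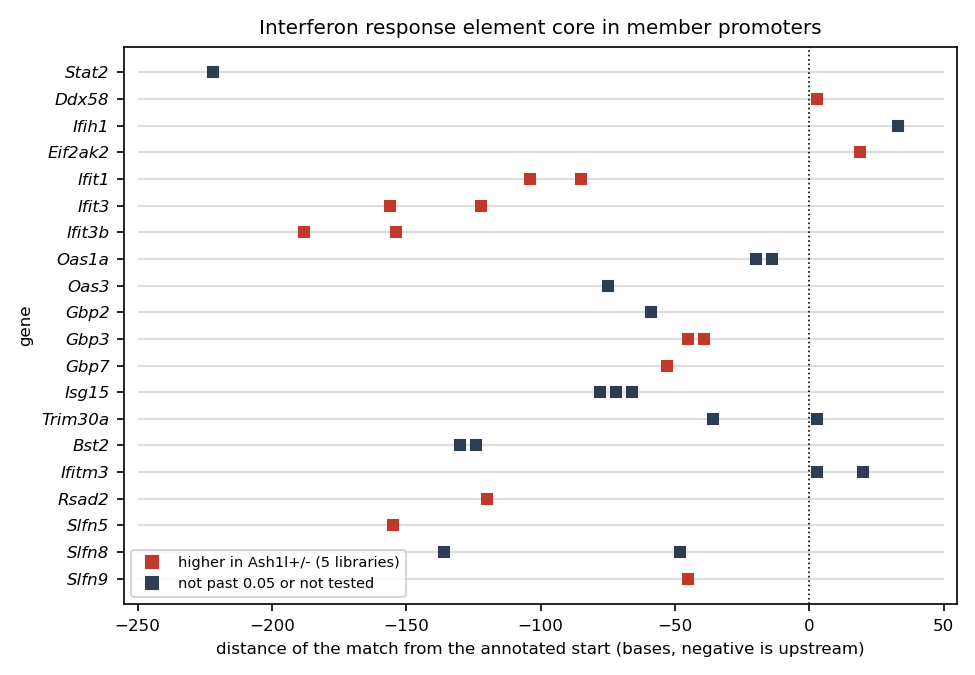
Position of each match of the response element core in the promoters of the 20 members that hold it, in bases from the annotated start (negative is upstream). The 1 match near Slfn8 is drawn from each of its starts. Red squares are the 10 genes that rose without WT replicate 2, and dark squares are the genes that did not pass or, for Oas3, were not tested.

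Upstream of these genes, interferons themselves were at or near 0. Of 21 interferon genes, alpha, beta, gamma, lambda and others, 20 had 0 reads in every library, which allows at most 0.137 to 0.224 CPM per library at 3 reads, by counting error only. Ifng had 2 reads in Ash1l+/- replicate 1 and 0 elsewhere. The receptor genes did not pass: Ifnar1 was at 60.7, 63.7 and 64.2 CPM in Ash1l+/- ganglia and 57.7, 36.1 and 57.4 in WT, and Ifnar2 at 12.5, 15.2 and 15.1 CPM in Ash1l+/- against 15.2, 6.28 and 15 CPM in WT. Without WT replicate 2 their log2 fold changes were 0.13 (SE 0.08) and -0.08 (SE 0.13), and over 6 libraries 0.32 (SE 0.22) and 0.23 (SE 0.35). Of 10 tested genes of the receptor and signalling list, 1 rose in the 5-library fit, near the share of all genes called higher (9.39%). It was Jak2, which rose by 0.39 (SE 0.10, edgeR adjusted p = 0.0125), at 33.0, 34.5 and 29.4 CPM in Ash1l+/- ganglia and 24.5, 15.1 and 24.8 in WT. The call was lost with trends removed (0.25, adjusted p = 0.119) and over 6 libraries (0.59, SE 0.23, adjusted p = 0.385). Jak1 was at 455, 516 and 512 CPM in Ash1l+/- ganglia and 419, 228 and 435 in WT, with no overlap. Over 5 libraries its fold of 0.21 (SE 0.08) missed the threshold in edgeR (adjusted p = 0.0503) and passed in DESeq2 (adjusted p = 0.0241), and with trends removed it was 0.10 (edgeR adjusted p = 0.379).

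Of 14 tested genes of the pathway that leads to interferon production, 1 rose and 2 fell without WT replicate 2, near the shares of all genes (9.39% higher, 10.4% lower). Tlr3, an endosomal RNA receptor, had a log2 fold change of 0.54 (SE 0.18, edgeR adjusted p = 0.0423). Irf3 and Irf5, transcription factors of interferon induction, had -0.49 (SE 0.12, edgeR adjusted p = 0.00832) and -0.76 (SE 0.23, adjusted p = 0.0266). None of the 3 passed with trends removed. Of 9 tested negative regulators, 0 passed over 5 libraries, and with trends removed Socs3, an inhibitor of Jak kinases, was higher by 0.59 (edgeR adjusted p = 0.0287).

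A further list of 54 interferon-stimulated genes outside the 43 gave 8 rises and 1 fall among 48 tested over 5 libraries, with a median log2 fold change of 0.21, beside 9.39% of all genes higher and 10.4% lower. Those that rose were Ifi203, Ifi207, Mndal, Ifit1bl1, Iigp1, Gbp5, Trim34a and B2m. Mndal, a DNA-binding protein of the Ifi200 family, was at 4.49, 6.12 and 6.01 CPM in Ash1l+/- ganglia and 2.91, 5.23 and 2.64 in WT, a fold of 0.99 (SE 0.22, edgeR adjusted p = 0.00446). B2m, the light chain of class I MHC, was at 164, 172 and 146 CPM in Ash1l+/- ganglia and 118, 187 and 125 in WT, a log2 fold change of 0.41 (SE 0.08, edgeR adjusted p = 0.00227). Shisa5, linked to cell death, fell by 0.41 (SE 0.10, edgeR adjusted p = 0.00819). With trends removed, 2 of the 48 rose, Mndal and Ly6e, beside 2.62% of all genes, and 0 fell.

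Marker genes of other cells differed between libraries, in both directions. The summed CPM of 12 macrophage markers was 45.6 to 50.1 in Ash1l+/- and 54.9, 139 and 56.0 in WT replicates 1, 2 and 3, and 0 of the 12 passed over 5 libraries. T and NK cell markers summed to 2.79 to 3.39 CPM in Ash1l+/- ganglia and 3.21 to 7.40 in WT. Of the plasmacytoid dendritic cell markers, Siglech had 7 to 11 reads per library in Ash1l+/- and 7 to 15 in WT, Klk1 had 0 in all, and Tcf4, which many other cells express, was the 1 marker of 2 tested that rose. Erythrocyte markers summed to 31.7, 94.9 and 52.8 CPM in Ash1l+/- ganglia and 81.2, 628 and 102 in WT, and neutrophil markers to 9.34, 27.9 and 13.4 in Ash1l+/- and 38, 53.1 and 15.8 in WT. Satellite glia, which wrap the neurons, had marker sums of 3560 to 4300 CPM in Ash1l+/- ganglia and 3960 to 12100 in WT. Among the 8 satellite glia markers 5 rose over 5 libraries, including Aqp4 by 0.72 (SE 0.16, edgeR adjusted p = 0.0044) and Kcnj10 by 0.42 (SE 0.08, adjusted p = 0.00198). Of 8 Schwann cell markers 3 fell, and of 8 fibroblast markers 4 fell, over the same libraries, beside 9.39% of all genes higher and 10.4% lower. With trends removed, 2 satellite glia markers were higher, and 2 Schwann cell and 3 fibroblast markers were lower, beside 2.62% and 4.42% of all genes. The part of these cell types in the members' values was not tested.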

How the data were processed

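Gene counts and FPKM of 6 libraries were used. The authors aligned reads with HISAT2 2.0.5 and made the deposited gene counts with featureCounts 1.5.0-p3 on GRCm38 (mm10), per the submitters' processing notes, which as listed here give no parameters. The deposited FPKM values follow from the counts and gene length with an effective library size, 0.75 of the total count in WT replicate 2 and 1.02 to 1.04 elsewhere, as computed from the deposited columns.

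Counts were fitted with edgeR 4.0.16 (TMM, filterByExpr, quasi-likelihood test, Benjamini-Hochberg over all genes tested, threshold 0.05) in R 4.3.3, with genotype as the only term. SEs are the log2 fold change over the root of F. The steps were tested on simulated data. Alternatives were limma 3.58.1 on log2(FPKM + 1), DESeq2 1.42.0, other scalings and filters, a replicate block, each library left out, and offsets from loess trends (span 0.3) on GC share and gene length. Chi-square was at least 3.86 per degree of freedom for each pair of libraries, so none was a duplicate.

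The members and lists were chosen with earlier results of these data known. The members given by library are those past the threshold with or without WT replicate 2, the 3 with the highest FPKM, all transcription factors and sensors, and the highest by CPM of each other role; the values of Isg15, Usp18, Parp9, Mx1 and Cmpk2 were added after they were seen. Transcript sharing was counted over stretches of 50 bases after the data were seen. Protein sequences were not used here.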

Additional observations from a re-analysis of the deposited data

How the results depend on the processing

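With all 6 libraries no member passed under any scaling, filter, tool, trend removal or replicate block tried, and DESeq2 alone called genes, 35 in all. The members' median log2 fold change was 0.55 with library totals (which moved the median of all genes to 0.13), 0.24 with FPKM and 0.21 with trends removed, against 0.39. Leaving out 1 library gave 0 to 3252 genes, 0 to 14 members higher and 0 to 1 lower, the calls all coming without WT replicate 2. Leaving out a second library as well gave 796 to 4198 genes, 6 to 16 members higher and 1 lower. Over the 5 libraries, removing trends gave 1154 genes, 6 members higher, 1 lower and a median of 0.28. DESeq2 gave 2933 genes with 11 higher and 1 lower, RLE size factors 3266 with 14 and 1, and library totals 3223 with 13 and 1; these 3 were chosen after seeing the data.

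The labels number the libraries without stating whether the numbers pair them. Deviations of same-numbered libraries correlated at 0, -0.03 and 0.04, and those of differently numbered ones at -0.07 to 0.04. Such values cannot settle whether same-numbered libraries were handled together. A replicate block gave 0 calls over 6 libraries, with a member median of 0.45, and 3982 genes with 15 members higher and 1 lower over 5, the gain being Oasl2 (0.28, SE 0.09, edgeR adjusted p = 0.0187). Under that block Ifitm3 was at 0.23, Bst2 at 0.25, Irf7 at 0.30 and Adar at -0.04.

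Some members changed sign. Irf7 was at 0.08 with library totals, 0.18 with trends removed, and -0.42 to 0.56 with libraries left out. Ifitm3 ran from -0.80 to 0.39, Bst2 from -1.16 to 0.39 and Adar from -0.09 to 0.71 with libraries left out. Irf1 ran from 0 to 0.32, and its sign reversed without WT replicate 1, at a value that rounds to 0. Isg15, Ifi35, Xaf1, Slfn2 and Oas1a were below 0 over all libraries and above 0 without WT replicate 2, and Cmpk2 went the other way. Over 5 libraries, Ifitm3 was at 0.34 with trends removed, 0.28 with DESeq2 or RLE and 0.27 with library totals. Bst2 was at 0.43 with trends removed and 0.22 otherwise. Irf7 was at 0.49 with trends removed, 0.30 with DESeq2 or RLE and 0.29 with library totals. Adar was at -0.03 with DESeq2 or RLE and -0.04 with library totals, and Ifit2 at -0.02 with trends removed. The cause was not tested. With 3 libraries per genotype, and 2 WT libraries where replicate 2 is left out, low genes such as Zbp1, Mx1 and Slfn9 rest on few reads.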
